A study of Mus musculus with 6 samples.

Results

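The FOS and JUN family, also called AP-1, was followed by 8 genes chosen by name out of 18743 genes listed in the transcript tables: Fos, Fosb, Fosl1, Fosl2, Jun, Junb, Jund and Jdp2. All 8 were listed, and all 8 passed the filter on low counts that left 12779 genes for testing. The cells were oligodendrocyte progenitor cells (OPCs), dividing glial precursors of myelinating oligodendrocytes, cultured from the cortex of wild type C57BL/6 mouse pups (postnatal day 1 in the sample labels, day 0 to 2 in the protocol) and selected with magnetic beads against PDGFRα (CD140). After 3 days of growth they received hemin, the oxidised form of heme that is released from haemoglobin after bleeding, at 50 µM for 12 h, or the vehicle DMSO at 0.25% for the same time. There were 3 hemin and 3 vehicle libraries. Nothing in the labels ties the replicates to different cultures or litters. The p-values therefore reflect no more than the variation among these libraries, and that variation could be technical.

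AP-1 is a set of transcription factors that bind DNA as pairs through a basic leucine zipper (bZIP). JUN proteins pair with each other or with FOS proteins, whereas FOS proteins need a JUN partner. Fos, Fosb, Jun and Junb are classic immediate early genes, switched on within minutes of a growth factor, depolarisation or stress without new protein synthesis, and in the brain they are widely used as signs of recent activity or injury. Fosl1 and Fosl2 encode FRA-1 and FRA-2, FOS-related proteins that lack the strong activation domain of FOS and usually appear later. Jund is the member most often found in resting cells, and Jdp2 encodes a JUN partner that mainly represses.

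Total expected counts were 6463460 to 6523639 in hemin libraries and 6339966 to 6390691 in vehicle libraries, and replicates of a group differed by more than counting noise. The OPC label was checked against 12 marker genes, all of which were detected, with a summed level of 414 to 614 FPKM in hemin libraries and 1275 to 1553 FPKM in vehicle libraries. All 12 were tested and 11 fell, beside 15.7% of all genes tested. Markers of astrocytes, 8 of 8 detected, summed to 380 to 514 FPKM in hemin libraries and 459 to 550 FPKM in vehicle libraries, so transcripts of that list were also present. Microglial markers, 8 of 8 detected, summed to 13.9 to 15.8 FPKM with hemin and 6.10 to 10.4 FPKM with vehicle. Endothelial markers, 6 of 6 detected, summed to 5.02 to 6.03 FPKM with hemin and 1.23 to 1.77 FPKM with vehicle. Of the 4 tested, 3 rose (Pecam1 15.8-fold, Tek 12.6-fold and Kdr 4.82-fold), beside 16.2% of all genes tested. These 3 had 13, 5 and 26 counts over the vehicle libraries. They passed the filter on low counts through their hemin counts alone, so the filter favoured rises. Cldn5 and Cdh5 stood at 0.25 FPKM or less in each library and were not tested. Neuronal markers, 8 of 8 detected, summed to 72.4 to 108.7 FPKM with hemin and 145 to 176 FPKM with vehicle. Pericyte and fibroblast markers, 7 of 7 detected, summed to 4.02 to 11.7 FPKM with hemin and 3.27 to 7.37 FPKM with vehicle, and oligodendrocyte markers, 9 of 10 detected with Mog at 0, to 31.2 to 45.1 FPKM with hemin and 42.4 to 69.0 FPKM with vehicle. In RNA from whole cultures, fewer cells of a type and less RNA per cell cannot be told apart, and the part of these shifts in the AP-1 results was not tested.

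The promoters of Fos, Fosb, Junb and Jun are shown because the 3 first named had the same order among the hemin libraries and Jun the opposite one, as described further on. Jund had the same order as those 3, over a narrower span (16.2, 17.7 and 19.5 FPKM). Its window is not printed and held none of the motifs marked here. Each sequence is the RefSeq window of assembly GRCm38.p6 that runs from 250 bases before to 50 bases after an annotated gene start, 5′ to 3′ on the strand of the gene. Capitals mark the half-site of the cAMP response element (TGACG), the variant AP-1 site known from the Jun promoter (TGACATCA), the motif of TATA boxes (TATAAA) and that of binding sites for the factor NF-Y (CCAAT).
Fos, chr12:85473640-85473939, plus strand: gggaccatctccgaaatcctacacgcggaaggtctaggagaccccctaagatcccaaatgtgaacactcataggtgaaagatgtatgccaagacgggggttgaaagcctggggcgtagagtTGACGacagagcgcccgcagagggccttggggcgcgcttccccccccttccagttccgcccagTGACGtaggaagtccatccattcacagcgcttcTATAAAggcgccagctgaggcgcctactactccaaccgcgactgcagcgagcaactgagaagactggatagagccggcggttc
Fosb, chr7:19309996-19310295, minus strand: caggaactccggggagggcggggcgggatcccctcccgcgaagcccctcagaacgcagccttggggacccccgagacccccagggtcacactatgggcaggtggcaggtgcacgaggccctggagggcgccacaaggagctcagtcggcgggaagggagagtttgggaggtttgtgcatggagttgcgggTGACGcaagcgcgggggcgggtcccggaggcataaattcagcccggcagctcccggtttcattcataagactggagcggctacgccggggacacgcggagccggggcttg
Junb, chr8:84978699-84978998, minus strand: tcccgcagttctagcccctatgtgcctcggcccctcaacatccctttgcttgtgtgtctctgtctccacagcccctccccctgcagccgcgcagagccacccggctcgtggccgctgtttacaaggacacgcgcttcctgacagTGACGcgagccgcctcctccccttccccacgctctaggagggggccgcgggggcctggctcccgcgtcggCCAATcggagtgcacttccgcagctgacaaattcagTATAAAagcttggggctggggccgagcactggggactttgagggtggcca
Jun, chr4:95052173-95052472, minus strand: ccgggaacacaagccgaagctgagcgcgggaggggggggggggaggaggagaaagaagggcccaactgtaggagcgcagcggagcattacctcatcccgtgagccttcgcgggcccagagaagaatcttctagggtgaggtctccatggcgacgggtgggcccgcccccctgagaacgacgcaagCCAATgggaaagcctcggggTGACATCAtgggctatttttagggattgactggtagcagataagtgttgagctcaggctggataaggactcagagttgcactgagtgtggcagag
Windows for 7 of the 8 genes, all but Fosl1, were matched in the table. Both strands were searched. TGACG occurred 2 times in the Fos window, at positions -129 and -66 from the start, and 1 time each in the Fosb window at -60 and the Junb window at -106. It was also found in 1 of 3 windows of Jdp2 and in 20.8% of 32851 promoter windows of all genes. The Jun window held TGACATCA at -45, a motif present in 3.62% of all windows, and did not hold the half-site. The TATA-box motif stood in the window of Fos at -33, in that of Junb at 1, the annotated start itself, and in 13.6% of all windows, and CCAAT in those of Junb and Jun and in 37.4% of all. The AP-1 site TGACTCA (5.20% of all windows), the full cAMP response element TGACGTCA (1.79%, both strands alike and containing TGACG) and the core of the antioxidant response element TGACNNNGC (12.4%, which can overlap TGACG) were in none of the 9 windows of the 7 genes. The windows of Fosl2 and Jund held none of the 7 motifs. These matches describe letters in the reference and no binding was measured.

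Of the 8 genes, 7 rose with hemin and Jund did not pass the test. The rises spanned from 2.71-fold for Jdp2 to 95.8-fold for Fosb, with a median log2 fold change over the 8 genes of 3.56, against 0.00 over all genes tested. Fosb, with 4 counts over the vehicle libraries, passed the filter through its hemin counts alone, so the filter favoured a rise for that gene. Among all 12779 genes, edgeR's quasi-likelihood test called 31.9% at a Benjamini-Hochberg adjusted p below 0.05, 16.2% higher and 15.7% lower with hemin. The 3 hemin libraries all lay above the 3 vehicle libraries for the same 7 of 8 genes, and for 21.5% of all genes tested. With libraries scaled by their totals alone, the split of calls over all genes moved to 1715 higher and 2582 lower, against 2072 higher and 2005 lower with the standard scaling, and the median over all genes shifted by -0.09 on the log2 scale. The 7 members remained called under that scaling.

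**Figure D1:**
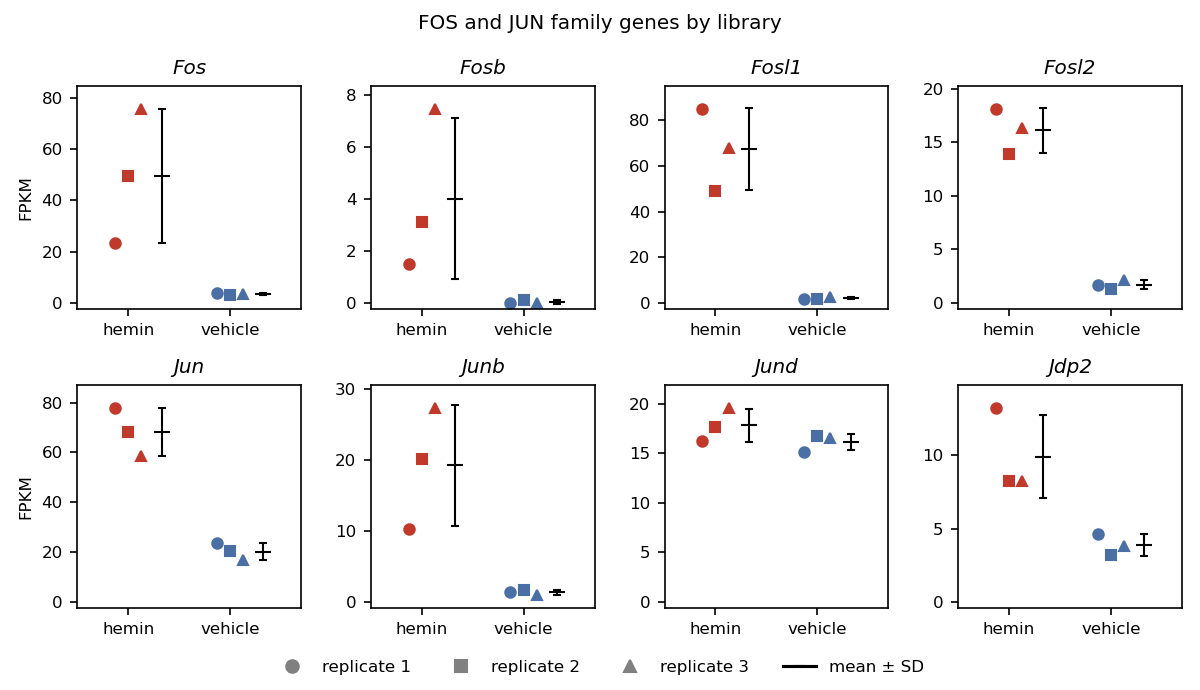
FPKM (vertical axis, linear, a separate scale for each gene) of the 8 FOS and JUN family genes in each hemin library (red) and vehicle library (blue), with the mean and SD of 3 libraries beside the points. The hemin points lie above the vehicle points for 7 genes, while those of Jund, 16.2 to 19.5 FPKM with hemin and 15.2 to 16.7 FPKM with vehicle, overlap.

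Among the FOS genes, Fos itself (gene identifier 14281) stood at 23.3, 49.4 and 75.5 FPKM in hemin libraries 1 to 3, against 3.69, 3.17 and 3.52 FPKM in vehicle libraries 1 to 3. The lowest hemin library was thus well above all vehicle libraries, but the hemin libraries differed 3.24-fold among themselves. Its mean was 49.4 ± 26.1 FPKM with hemin and 3.46 ± 0.265 FPKM with vehicle (SD, n = 3 each), and edgeR gave a log2 fold change of 3.87 ± 0.41 (SE), or 14.6-fold, with an adjusted p of 0.000900. Fosb (14282), whose alternatively spliced product ΔFosB is known for its persistence in neurons, had 50.8, 105 and 249 expected counts in hemin libraries and 0, 4 and 0 in vehicle libraries. It was close to undetected with vehicle, 0.0400 ± 0.0693 FPKM, and reached 4.02 ± 3.10 FPKM with hemin (SD, n = 3 each). The fitted change was 95.8-fold (adjusted p = 0.00312), and the ratio of summed counts was 106, with an exact 95% interval of 40.9 to 390 that covers counting error only. The fitted log2 fold change was 2.09 by limma on log2(FPKM + 1) and 4.70 by limma on log2(FPKM + 0.1), as the added constant lowers it by construction. The vehicle level rests on 4 counts in 1 library. Without vehicle replicate 2, which leaves a vehicle level of 0, the fitted log2 fold change was 10.10, and it was 5.81 without hemin replicate 3. The tables list 1 Fosb transcript, so full-length Fosb and ΔFosB were not separated.

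The FOS-related genes rose as well, with less spread between hemin libraries. Fosl1 (14283), encoding FRA-1, stood at 84.9, 48.9 and 68.1 FPKM in hemin libraries and at 1.80, 1.65 and 2.66 FPKM in vehicle libraries. It thereby reached the level of Jun with hemin, although with vehicle it was among the low members. The change was 34.2-fold (log2 fold change 5.10 ± 0.30, SE, edgeR adjusted p = 0.000191), and 31 of the 12779 genes had a greater fitted log2 fold change. The annotation GENCODE vM21 places Ccdc85b on the opposite strand with an exon overlap of 1055 bases, and Ccdc85b stood at 28.1, 19.2 and 23.8 FPKM with hemin and 4.92, 4.84 and 5.11 FPKM with vehicle. No source used here states whether counting was stranded, so reads from the shared stretch may have been split between both genes. Fosl2 (14284), encoding FRA-2, stood at 18.1, 13.9 and 16.3 FPKM with hemin and 1.67, 1.27 and 2.14 FPKM with vehicle. Its hemin libraries lay within 1.30-fold of each other, and it rose 9.83-fold (log2 fold change 3.30 ± 0.22, SE, edgeR adjusted p = 0.000199).

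The JUN genes fell into a strong, a moderate and an undetected change. Junb (16477), an immediate early JUN that in many settings restrains JUN, had 10.4, 20.2 and 27.3 FPKM in hemin libraries and 1.40, 1.77 and 1.00 FPKM in vehicle libraries. The hemin libraries were all higher, with hemin library 1 the lowest of them as for Fos. The rise was 14.2-fold (log2 fold change 3.82 ± 0.39, SE, edgeR adjusted p = 0.000806). Jun (16476), the main partner of FOS proteins and the substrate that gave JNK kinases their name, had 77.6, 68.3 and 58.6 FPKM with hemin and 23.6, 20.5 and 16.8 FPKM with vehicle. It was the highest member by mean in both groups, and its hemin libraries agreed within 1.32-fold. The rise was 3.50-fold (log2 fold change 1.81 ± 0.17, SE, edgeR adjusted p = 0.000575). Jund (16478) had 16.2, 17.7 and 19.5 FPKM with hemin and 15.2, 16.7 and 16.5 FPKM with vehicle. The groups overlapped, and the fitted 1.14-fold difference had a 95% interval of 0.961-fold to 1.35-fold (edgeR adjusted p = 0.210, and 0.127 to 0.528 over 13 alternatives), so a change of the size seen for Jun lay outside that interval. The 2 Jund transcripts in the tables have the same length and were given equal counts in every library, so the values do not separate them. Junb overlaps the opposite-strand gene Prdx2 by 173 bases of exon, and Prdx2 stood at 183 ± 33.4 FPKM with hemin and 189 ± 1.82 FPKM with vehicle (SD, n = 3 each). Jun, Jund and Jdp2 also overlap opposite-strand transcripts, Junos, Gm11175 and Gm47863, none of which is in the tables used here.

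Jdp2 (81703), the family's repressor, had 13.2, 8.24 and 8.26 FPKM with hemin and 4.65, 3.19 and 3.80 FPKM with vehicle. All hemin libraries exceeded all vehicle libraries, and the rise was 2.71-fold (log2 fold change 1.44 ± 0.28, SE, edgeR adjusted p = 0.00819). For Jdp2, 3 RefSeq transcripts were listed, and the split between them changed from library to library. The transcript of 1662 bases had 177, 60.4 and 51.2 expected counts with hemin and 31.9, 10.9 and 21.3 with vehicle. The one of 1567 bases had 0, 51.6 and 59.8 with hemin and 31.1, 32.1 and 30.7 with vehicle, so hemin library 1 was assigned almost wholly to the longer form. The one of 1559 bases had 9.91 counts in hemin library 1 and 0 in the other libraries.

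**Figure D2:**
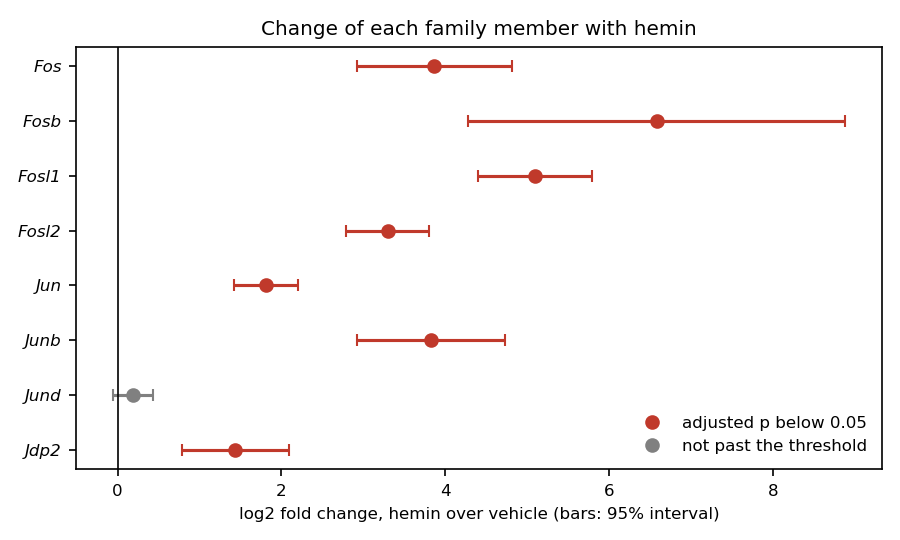
Log2 fold change of each gene, hemin over vehicle (horizontal axis), from edgeR, with 95% intervals as bars. Fosb has the greatest estimate, 6.58, and the widest interval, and the interval of Jund includes 0.

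Because FPKM is scaled by transcript length, levels could be compared between members. By mean level the order with hemin was Jun, Fosl1, Fos, Junb, Jund, Fosl2, Jdp2 and Fosb, in which each of the first 6 overlapped its neighbour, and Jdp2 and Fosb each lay below the gene before it without overlap. With vehicle the order was Jun, Jund, Jdp2, Fos, Fosl1, Fosl2, Junb and Fosb. There Jun was separate from Jund, and Jund from Jdp2, whereas Jdp2 and Fos overlapped, as did Fosl1 with Fosl2 and Fosl2 with Junb, and the steps between Fos and Fosl1 and between Junb and Fosb were without overlap. Overlap here compares ranges across the libraries of a group. Within every hemin library Fos was above Junb, and within every vehicle library Jdp2 was above Fos and Fosl1 above Fosl2. The other overlapping pairs changed order between libraries. Among all tested genes ranked by mean FPKM, Fosl1 stood at the 93.2nd percentile with hemin and the 21.6th with vehicle, and Fos at the 90.6th with hemin and the 31.5th with vehicle.

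The make-up of the family therefore differed between the groups. The summed level of the 8 genes was 245, 230 and 281 FPKM in hemin libraries and 51.9, 48.4 and 46.4 FPKM in vehicle libraries. The FOS genes, Fos, Fosb, Fosl1 and Fosl2 together, held 52.1%, 50.2% and 59.6% of that sum with hemin and 13.8%, 12.8% and 17.9% with vehicle. The JUN genes, Jun, Junb and Jund, held 42.5%, 46.2% and 37.5% with hemin and 77.3%, 80.6% and 73.9% with vehicle. The ratio of FOS to JUN transcripts was thus 1.09 to 1.59 in hemin libraries and 0.159 to 0.243 in vehicle libraries. Jund alone held 6.60% to 7.70% with hemin and 29.2% to 35.6% with vehicle, although its own level did not pass the test. These shares describe transcripts and carry no test.

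**Figure D3:**
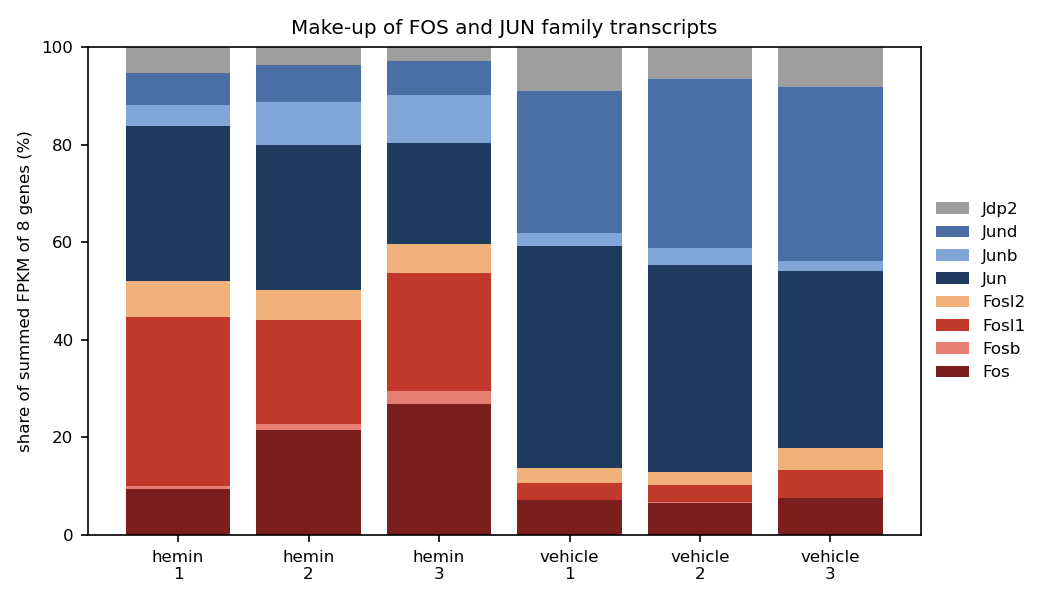
Share of each gene in the summed FPKM of the 8 FOS and JUN family genes (vertical axis, percent) in each library, hemin libraries on the left. FOS genes in reds and orange make up 50.2% to 59.6% of the bars with hemin and 12.8% to 17.9% with vehicle.

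The hemin libraries differed among themselves in which members were high. Hemin library 1 was the lowest of the 3 for Fos, Fosb, Junb and Jund and the highest for Fosl1, Fosl2, Jun and Jdp2. The same library was the lowest of the 3 for 7 of the 12 OPC markers, whose sum was 414, 614 and 513 FPKM in hemin libraries 1 to 3. Sox10, an oligodendrocyte lineage factor, stood at 3.43, 18.3 and 17.3 FPKM in them. Pdgfra, the receptor used for selection, stood at 12.6, 31.6 and 26.9 FPKM. Olig2 and Sox8, also on the OPC list, were instead highest in hemin library 1, Olig2 at 94.8, 60.7 and 42.3 FPKM. That library was also the lowest for 7 of 9 oligodendrocyte, 6 of 8 neuronal and 5 of 7 pericyte and fibroblast markers. It was the lowest for 2 of 8 astrocyte, 2 of 8 microglial and 3 of 6 endothelial markers. The part of these marker differences in the order of the members was not tested. Hemin library 3 was the highest of the 3 for Fos, Fosb, Junb and Jund. The span was wide for 3 of these genes, 5.05-fold for Fosb, 3.24-fold for Fos and 2.64-fold for Junb, and 1.21-fold for Jund. It was 1.74-fold for Fosl1, 1.60-fold for Jdp2, 1.32-fold for Jun and 1.30-fold for Fosl2. The ratio of Fos to Fosl1 was 0.274, 1.01 and 1.11 in hemin libraries and 2.05, 1.92 and 1.32 in vehicle libraries, so Fosl1 was below Fos in every vehicle library and above it only in hemin library 1. The 7 members stayed called without hemin replicate 1, 2 or 3 (edgeR adjusted p = 0.000301 to 0.0172).

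**Figure D4:**
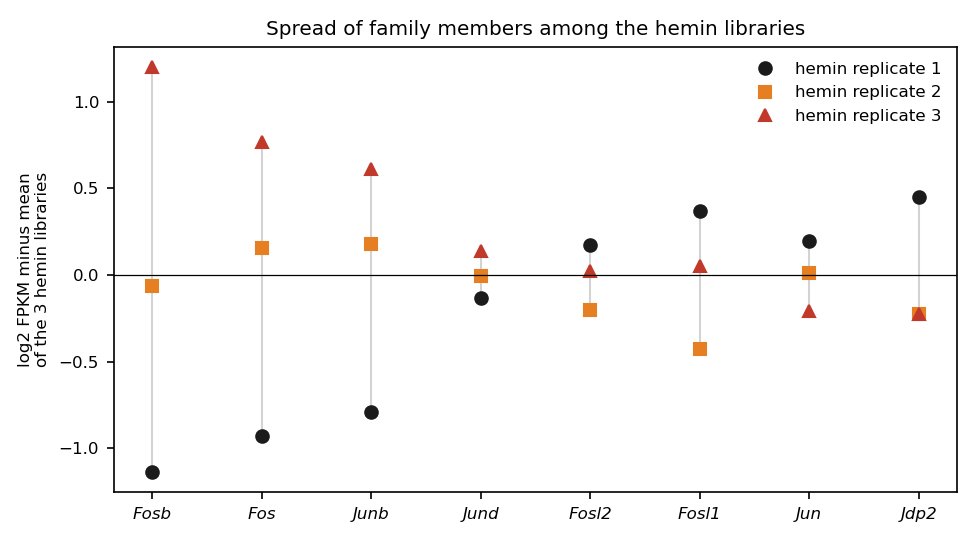
Log2 FPKM of each gene in each hemin library minus the mean of the 3 hemin libraries (vertical axis). Replicate 1 is lowest for Fosb, Fos, Junb and Jund and highest for the other 4 genes.

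The genes with the profiles nearest to Fos and Jun were taken over all 6 libraries, by the root mean square difference of log2 depth-scaled counts after subtraction of each gene's vehicle mean. A prior count of 2 was added before the log, which shrinks rises from near 0. Nearest to Fos were Junb (0.28 on the log2 scale), Edn1, the vasoconstrictor endothelin-1 (0.30), and Pecam1, an adhesion molecule of endothelial cells (0.35). Edn1 had 105 counts over the hemin libraries and 2 over the vehicle libraries, a ratio of 54.8 with an exact 95% counting interval of 14.8 to 458. Its fitted log2 fold change was 5.52, against 3.87 for Fos, so its nearness to Fos depends on the prior count. Pecam1, also 1 of the 6 endothelial markers, had 1.78, 2.16 and 3.08 FPKM with hemin and 0.150, 0.170 and 0.140 FPKM with vehicle. Nearest to Jun were Mx2, an interferon-induced GTPase (0.13), Rnd1, a protein that loosens the cytoskeleton (0.13), and Rorb, a nuclear receptor (0.13). Rnd1 stood at 6.87, 5.37 and 5.73 FPKM with hemin and 1.89, 1.56 and 1.24 FPKM with vehicle, and Rorb at 10.4, 9.87 and 7.83 FPKM with hemin and 3.75, 3.08 and 2.81 FPKM with vehicle.

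Other bZIP proteins that can pair with FOS or JUN were partly higher. Of 12 genes, 9 were tested and 5 rose, against 16.2% of all genes, with a median log2 fold change of 1.51 over the tested ones, against 0.00 over all genes. Atf3, a stress-induced partner of JUN, averaged 59.0 ± 25.1 FPKM with hemin and 0.700 ± 0.104 FPKM with vehicle (SD, n = 3 each, edgeR adjusted p = 0.000199). Maff, a small MAF protein, averaged 23.6 ± 3.33 FPKM with hemin and 2.36 ± 0.0513 FPKM with vehicle, a 10.5-fold rise, and Mafk, a further small MAF, rose 5.25-fold. Atf4, the effector of the integrated stress response, rose 3.09-fold. Atf7, a partner of the ATF2 group, had 6.97 ± 0.643 FPKM with hemin and 7.99 ± 0.288 FPKM with vehicle (edgeR adjusted p = 0.383), and was called lower without hemin replicate 1 (0.0466). Batf, Batf2 and Batf3, which block or redirect JUN in immune cells, had too few counts to be tested.

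Genes of the MAP kinase cascade, whose kinases phosphorylate JUN and the factors that bind the Fos promoter, moved both ways. Of 22 tested genes, 4 rose and 7 fell, beside 16.2% and 15.7% of all genes, with a median log2 fold change of -0.06. Map3k1, a kinase upstream of JNK, averaged 8.06 ± 1.18 FPKM with hemin and 19.9 ± 0.544 FPKM with vehicle, a 2.39-fold fall (SD, n = 3 each, edgeR adjusted p = 0.000482). Mapk7, also known as ERK5, fell 1.78-fold and Mapk14, the p38α kinase, 1.61-fold. Map2k3, an activator of p38, rose 2.54-fold, with 21.6 ± 5.06 FPKM with hemin and 8.86 ± 1.15 FPKM with vehicle. The other 3 that rose were Rps6ka3, the kinase RSK2, 2.20-fold, Map3k13, a kinase upstream of JNK, 1.86-fold, and Mapk10, JNK3, 1.63-fold. The Mapk10 call was lost without hemin replicate 2 or vehicle replicate 2 (edgeR adjusted p = 0.0590 and 0.0660). That of Rps6ka3 was lost without hemin replicate 1, 2 or 3 (0.0613, 0.0639 and 0.0712) or vehicle replicate 2 (0.0730). The other JNK genes, singled out here after their values were seen, did not pass: Mapk8 had 6.66 ± 3.00 FPKM with hemin and 5.46 ± 0.720 FPKM with vehicle, and Mapk9 13.03 ± 0.857 FPKM with hemin and 14.3 ± 1.18 FPKM with vehicle (edgeR adjusted p = 0.452 and 0.614). The number of calls in the list dropped to 7 without hemin replicate 2 and to 6 without vehicle replicate 2.

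Of 14 genes for factors that act on the Fos and Jun promoters, 3 rose and 2 fell, shares near the 16.2% and 15.7% of all genes, with a median log2 fold change of 0.22. The coactivator Crebbp rose 1.93-fold, and Mef2a and Mef2d, MEF2 factors that bind the Jun promoter, rose 1.89-fold and 1.87-fold. Mef2d stood at 10.6 ± 1.41 FPKM with hemin and 5.87 ± 1.93 FPKM with vehicle (SD, n = 3 each), and its call was lost without hemin replicate 3 or vehicle replicate 1 (edgeR adjusted p = 0.0681 and 0.0765). Elk1, a partner of SRF at the Fos promoter, and Stat3, a cytokine-activated factor, fell 1.39-fold and 1.24-fold. Both falls were fragile. That of Elk1 was lost without hemin replicate 1 or 3 (0.0662 and 0.0907) or vehicle replicate 1, 2 or 3 (0.148, 0.122 and 0.0912), and that of Stat3 without hemin replicate 1 or 2 (0.0584 and 0.117) or vehicle replicate 1, 2 or 3 (0.0968, 0.208 and 0.105), by edgeR adjusted p. In the fit blocked on replicate number neither was called (0.0729 and 0.0598), which left 3 calls in the list. It held 3 calls without hemin replicate 3, vehicle replicate 2 or vehicle replicate 3, and 2 without vehicle replicate 1.

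Some genes that switch the pathway off were higher. Of 15 tested MAP kinase phosphatases and Sprouty or SPRED inhibitors, 7 rose, beside 16.2% of all genes, and 2 fell, a share near the 15.7% of all genes, with a median log2 fold change of 0.76, against 0.00 over all genes. Among the 7, Dusp2 had 113 counts over the hemin libraries and 13 over the vehicle libraries. It passed the filter through its hemin counts alone, so the filter favoured a rise for that gene. Spry4, also among the 7, had overlapping groups and an edgeR adjusted p of 0.0490. The number higher was 6 with library totals alone, with no filter or without any 1 vehicle library, and 9 by DESeq2. Dusp1, an immediate early phosphatase of p38 and JNK, averaged 16.2 ± 2.05 FPKM with hemin and 5.12 ± 0.446 FPKM with vehicle, 3.29-fold higher (SD, n = 3 each, edgeR adjusted p = 0.000767). Dusp5, a nuclear ERK phosphatase, rose 4.48-fold and Dusp16, a JNK phosphatase, 3.22-fold. Spry1, an inhibitor of receptor tyrosine kinase signalling, fell 2.67-fold, with 14.1 ± 2.13 FPKM with hemin and 39.1 ± 3.98 FPKM with vehicle (edgeR adjusted p = 0.000855). The second to fall was Dusp7, 1.54-fold, a call lost without hemin replicate 2 or 3 (edgeR adjusted p = 0.0638 and 0.0565) or vehicle replicate 1, 2 or 3 (0.0904, 0.0654 and 0.0577).

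Of 8 genes for turnover of JUN protein and Fos mRNA, 3 rose and 0 fell, beside 16.2% and 15.7% of all genes, with a median log2 fold change of 0.27. At an unadjusted p below 0.05 the number lower was also 0 by edgeR. Zfp36, the RNA-binding protein that speeds decay of early-gene mRNAs, averaged 27.2 ± 4.16 FPKM with hemin and 2.30 ± 0.316 FPKM with vehicle, 12.2-fold higher (SD, n = 3 each, edgeR adjusted p = 0.000162). Itch, a ubiquitin ligase for JUN proteins, and Elavl1, an RNA-stabilising protein, were 1.35-fold and 1.29-fold higher. Itch lost its call without hemin replicate 1 or 2 (edgeR adjusted p = 0.0580 and 0.107) or vehicle replicate 1, 2 or 3 (0.0709, 0.0809 and 0.0840). Elavl1 lost its call without hemin replicate 2 (0.0632) or vehicle replicate 1 or 2 (0.0968 and 0.124), in the fit blocked on replicate number (0.0526) and by limma (0.0567 to 0.0600). With library totals alone neither was called (0.0553 and 0.0764), which left 1 call of 8 in the list, no more than the 16.2% of all genes in the main fit. Leaving out hemin replicate 2, vehicle replicate 1 or vehicle replicate 2 also left 1 call. Over all genes these 3 fits called 1544, 1461 and 1442 genes higher, against 2072 in the main fit. Fbxw7, a ligase that marks phosphorylated JUN for destruction, stood at 13.7 ± 1.74 FPKM with hemin and 10.6 ± 0.999 FPKM with vehicle (edgeR adjusted p = 0.0531, DESeq2 adjusted p = 0.0326). Det1, part of a further ligase for JUN, had 1.47 ± 0.114 FPKM with hemin and 2.11 ± 0.446 FPKM with vehicle (edgeR adjusted p = 0.222).

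Genes known from textbooks as AP-1 targets were mostly higher. Of 25 genes, 19 were tested and 15 rose, beside 16.2% of all genes, with a median log2 fold change of 1.66 over the tested ones, against 0.00 over all genes. A gene near 0 with vehicle could pass the filter through its hemin counts alone, so the tested part of the list favours rises. Areg, encoding the EGF receptor ligand amphiregulin, had 160 counts over the hemin libraries and 3 over the vehicle libraries, a ratio of 55.7 with an exact 95% counting interval of 18.7 to 273, and Ereg, encoding epiregulin, rose 14.5-fold. The fitted log2 fold change of Areg was 5.62, and 6.48 without vehicle replicate 1. Spp1, osteopontin, rose 4.35-fold, with 78.4 ± 20.9 FPKM with hemin and 18.8 ± 2.44 FPKM with vehicle (edgeR adjusted p = 0.00106). By edgeR none of the 19 tested targets had a negative fitted change. The collagenase and stromelysin genes Mmp3, Mmp9, Mmp10 and Mmp13, often used as AP-1 reporters, had too few counts to be tested, as did Il6 and Fasl. Mmp3 had 18 counts over the hemin libraries and 16 over the vehicle libraries, and Mmp13 had 19 counts over the hemin libraries and 0 over the vehicle libraries.

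**Figure D5:**
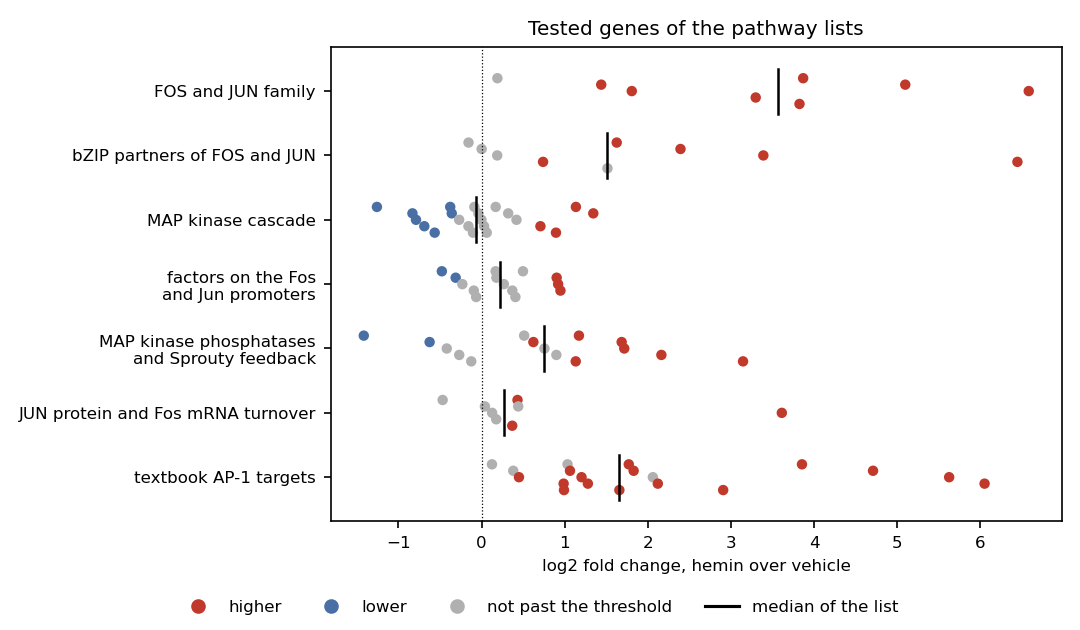
Log2 fold change, hemin over vehicle (horizontal axis), of every tested gene of the family and of 6 lists around it, coloured by the call at an adjusted p below 0.05, with a black line at the median of the list. The family has a median of 3.56, the MAP kinase cascade of -0.06 and the AP-1 targets of 1.66.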

How the data were processed

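RNA was profiled in 6 libraries, 3 from OPCs given hemin and 3 from OPCs given vehicle, grouped by title. Tools named in the submitters' processing notes are Bowtie 0.12.2 and RSEM. The notes list mm8 and mm9 as builds without giving either a role. No source used here states the annotation release or the strand setting. Per the file headers, the authors deposited expected counts, estimated reads per transcript that are not scaled for depth, and FPKM, scaled by the authors for transcript length and library size. Features with no annotated gene are kept in separate tables and were not used here.

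Transcripts (26421) were summed to 18743 genes, with a missing gene set to 0. Of these, 18711 matched a symbol in the RefSeq table of GRCm38.p6 and 32 did not. Expected counts were rounded to integers. The R 4.3.3 package edgeR 4.0.16 (filterByExpr, TMM, glmQLFit, glmQLFTest, two-sided) tested hemin against vehicle over 12779 genes with Benjamini-Hochberg adjustment, called at 0.05. The SE is the log2 fold change divided by the square root of F. Depth was 6339966 to 6523639 counts per library, and counting intervals do not cover duplicate PCR reads. The fit was tested on simulated data first.

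The members and lists were chosen with earlier results of these data known. Named genes are the members, up to 4 genes per list with the smallest p, the one with the smallest p against the majority, and the 3 nearest profiles to Fos and to Jun among genes with a mean of at least 1 FPKM in a group. Map3k13, Mapk10, Rps6ka3, Mapk8, Mapk9, Stat3, Dusp7, Dusp2, Spry4 and the untested genes fall outside that rule and were named after their values were seen. A few listed genes are not reported here. Alternatives were DESeq2 1.42.0, library totals alone, no filter, limma 3.58.1 on log2(FPKM + 1) for genes of at least 0.5 FPKM in a group, or without that filter, or with a pseudocount of 0.1, the replicate number as a block, and each library left out.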

Additional observations from a re-analysis of the deposited data

How the results depend on the processing

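The 7 rises and the absent call of Jund kept direction and side of the threshold under all 13 alternatives, 104 of 104 values over the 8 members, and 7 members were called in each. The highest adjusted p of the 7 over these alternatives was 0.0323, for Jdp2 without vehicle replicate 2. Of 507 values for single genes of the lists and nearest profiles, 448 did likewise, 55 lost the call, 2 gained it and 2 changed sign, namely Mapk8 without hemin replicate 3 and Mapk9 without vehicle replicate 3. With 1 library left out the log2 fold change spanned -0.028 to 0.59 for Mapk8 and -0.15 to 0.0043 for Mapk9. Calls over all genes numbered 4077, and 2551 to 4530 with 1 library left out, falling to 2597 without vehicle replicate 1 and 2551 without vehicle replicate 2. The MAP kinase list held 11 calls, and 6 to 10 with 1 library left out. The promoter factor list held 5, 2 to 4 with 1 library left out, and 3 with the replicate block. The turnover list held 3, but 1 with library totals alone, with no filter on low counts and by limma on log2(FPKM + 1) with no filter, and 1 to 3 with 1 library left out. The drop of the Jun share, -13.9 percentage points in FPKM, was -11.7 in expected counts. The pseudocount of 1 lowered the fitted log2 fold change of low genes by construction, to 4.47 for Fosl1, 2.67 for Fosl2 and 3.00 for Junb. Deviations of same-numbered libraries correlated at 0.06, 0.10 and 0.16, and those of differently numbered libraries at -0.12 to 0.02, each library best with its own number. The labels do not say whether equal numbers mark pairs, and the main fit did not pair them. The replicate block gave 3728 calls over all genes and all 7 members. The causes of these shifts were not tested. With 4 vehicle counts of Fosb, the size of its rise is limited by depth.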
